A study of Pomacea canaliculata with 34 samples.

Results

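The genes described here are those of the apple snail Pomacea canaliculata that rose between Stage 6 and Stage 8 of embryonic development. They had some reads at Stage 2, stood low at Stage 3 and Stage 6 and stayed up in the hatchling. They number 119 of the 21131 genes in the deposited table, or 0.563%. They were chosen by their measured levels, averaged over the libraries of a stage, in CPM (a gene's count divided by the library's total count in genes and multiplied by 1000000). A member had over 3 reads in all at Stage 2 and means under 10 CPM at Stage 3 and Stage 6. Its Stage 8 mean was 10 CPM or more and at least 8 times its Stage 6 mean. Its hatchling mean was over 50% of its highest stage mean and under 4 times its Stage 10 mean, and no stage mean reached 500 CPM. The rise from Stage 6 to Stage 8 and the level kept in the hatchling are therefore properties of the choice and are described without a test.

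Polyadenylated RNA of whole animals was sequenced in 34 libraries, in a study of the species' camera-type eye and its regeneration. Embryos freed from their eggs gave 3 libraries per stage up to Stage 7, starting with Stage 2, and 4 per stage for Stages 8, 9 and 10, while hatchlings gave 4. No treatment, mutation or strain is named in the labels, and all stages are of the same species. Nothing in the labels tells whether a stage's libraries are separate clutches. The p-values therefore set a difference only against the scatter of these libraries, which may be technical. That scatter was estimated over all 34 libraries together. In whole animals, a change in the number of cells that hold a transcript and a change in its amount per cell cannot be told apart.

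Apple snails develop directly within the egg and hatch as small crawling snails, with no free-swimming larva. In animals generally, the RNA of the earliest embryo includes transcripts laid down by the mother, and the embryo's own genes are switched on later. Genes that come on late in development and stay on are often used by differentiated tissues. All 119 identifiers matched the RefSeq gene table of this species (assembly ASM307304v1), but the table pairs them with no product name, so no member could be given a function. The members are therefore ordered by when they rose, how they behaved afterwards and what they did before.

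A library held 16608796 to 23030901 reads in genes up to Stage 7 and 13392123 to 95942469 from Stage 8 to the hatchling. All 119 members passed the low-count filter of the tests. They could pass it through the late stages where they are high, so a member may have passed with few early reads. In the early stages levels rest on few reads. A member had a median of 15 reads over the 3 Stage 2 libraries together (range 4 to 732), 30 over those of Stage 4 (0 to 548) and 112 over those of Stage 6 (0 to 656), against 416 at Stage 7 (17 to 6412) and 4380 at Stage 9 (1129 to 51844).

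The 119 genes together took 1.03% of the reads in genes in the hatchling and 0.00953% at Stage 2. Their summed level was 95.3 ± 13.5 CPM at Stage 2, 97.5 ± 5.31 CPM at Stage 3 and 98.1 ± 16.5 CPM at Stage 4 (SD, n = 3 each), differences smaller than the SDs. LOC112570642 made up 14.5, 6.13 and 0.130 CPM of it at these stages and LOC112576495 12.6, 5.00 and 2.61 CPM. The median member stood at 0.265, 0.309 and 0.539 CPM at these stages, and the median of all genes at 2.12, 3.15 and 4.05 CPM. The summed level then stood at 162 ± 15.7 CPM at Stage 5, 279 ± 12.1 CPM at Stage 6 and 1526 ± 132 CPM at Stage 7 (n = 3 each). At Stage 8 it was 4650 ± 373 CPM, at Stage 9 7954 ± 227 CPM, at Stage 10 7842 ± 330 CPM and in the hatchling 10284 ± 936 CPM (n = 4 each). In this sum no library of Stage 5, 6, 7, 8 or 9 or of the hatchling overlapped a library of the stage before it, while Stage 10 (7474 to 8202 CPM) and Stage 9 (7634 to 8163 CPM) overlapped. From Stage 8 on the number of libraries and the highest totals were also greater, and stage and library set cannot be told apart. The median member stood at 0.265 CPM at Stage 2, 1.70 CPM at Stage 6, 7.70 CPM at Stage 7, 24.7 CPM at Stage 8 and 58.2 CPM in the hatchling. The median of all genes stood at 2.12, 6.19, 7.98, 9.51 and 12.4 CPM at the same stages, so the median member lay below the median gene until Stage 7 and above it from Stage 8 on.

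**Figure D1:**
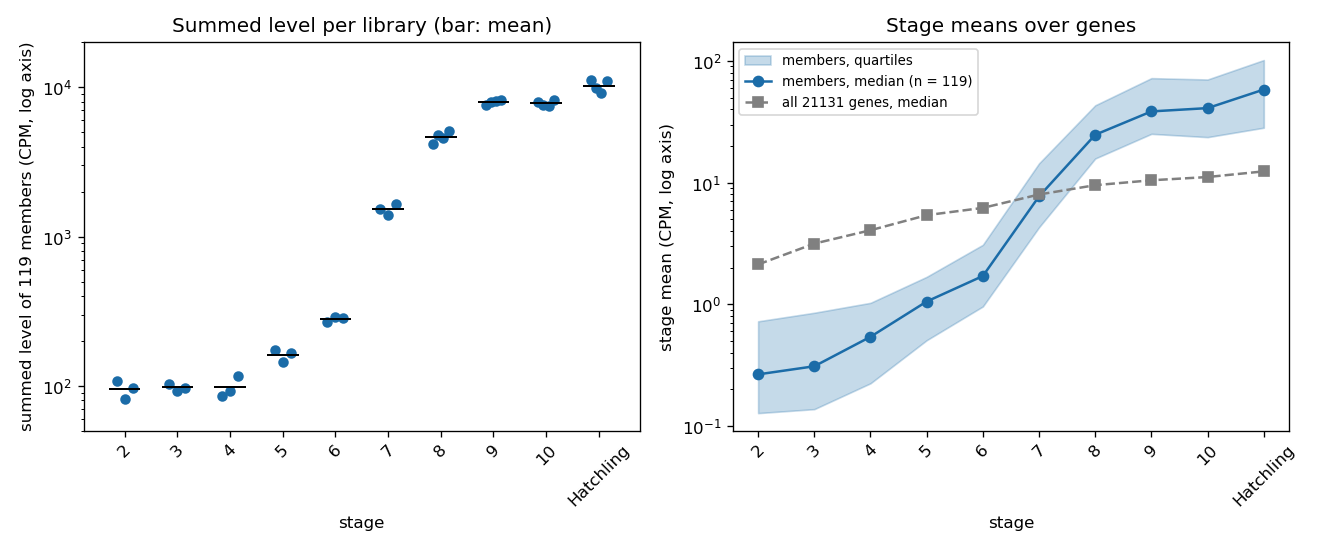
Left: summed level of the 119 members in each library (points) and its stage mean (bars), on a log axis in CPM, by stage. Right: median (line) and quartiles (band) of the members' stage means, beside the median of all 21131 genes (dashed). The sum averages 98.1 CPM at Stage 4 and is at least 9158 CPM in every hatchling library.

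Every member had a higher mean at Stage 7 than at Stage 6 and a higher mean at Stage 8 than at Stage 7, so both steps held part of the rise. The Stage 8 mean was 13.3 times the Stage 6 mean in the median member, with quartiles of 9.72 and 22.8 over the 118 members with Stage 6 reads. It was at least 16 times in 49 members, at least 32 times in 22 and at least 100 times in 4, the member without Stage 6 reads included as a bound. On the log2 scale the median member had covered 57.1% of this rise at Stage 7 (quartiles 47.8% and 63.3%). Counted in CPM, the median member had gained 25.6% of its Stage 8 increase by Stage 7, and 9 members had gained over 50%. Of the 119 members, 41 first reached a mean of 10 CPM at Stage 7 and 76 at Stage 8, while the other 2 already stood above 10 CPM at Stage 2.

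**Figure D2:**
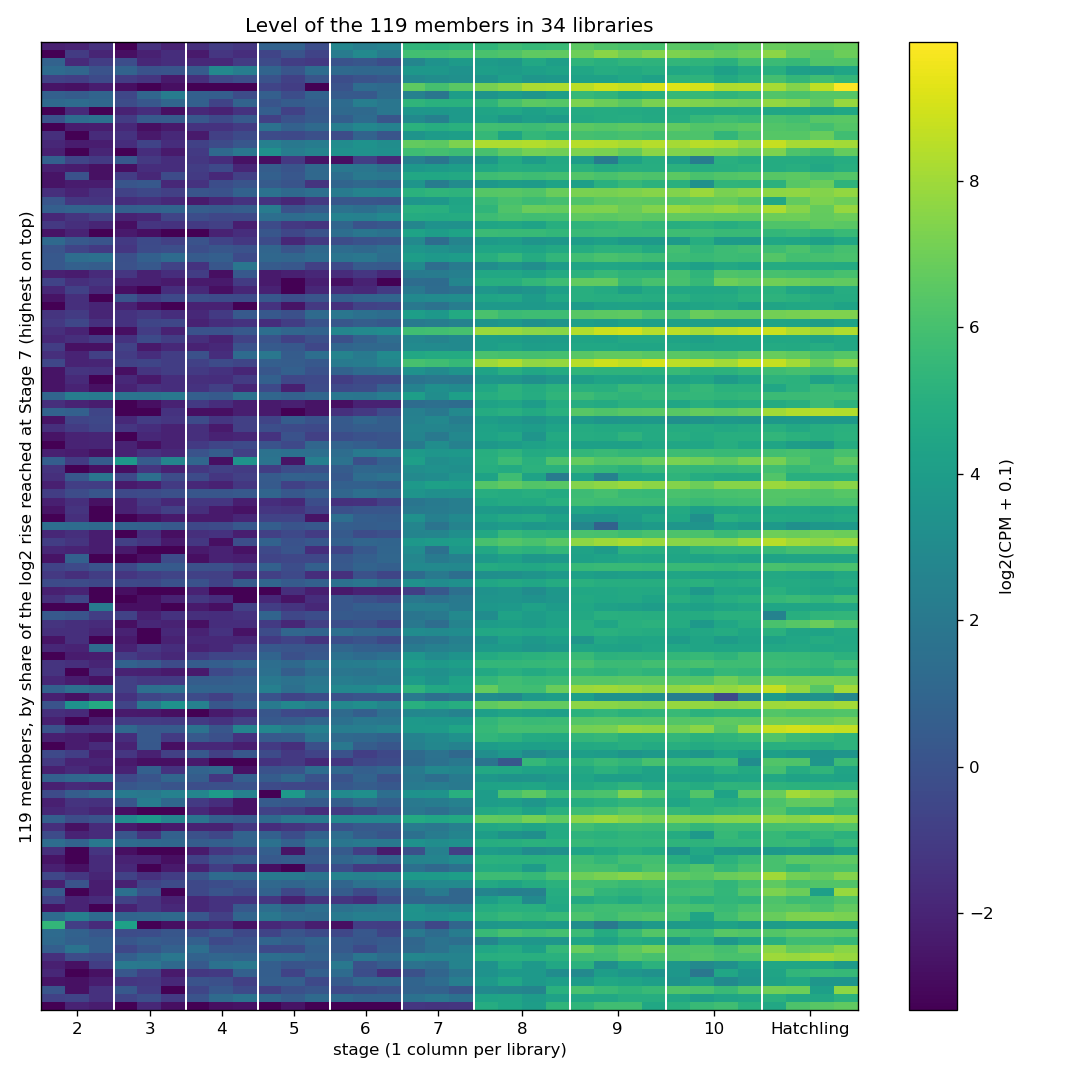
Level of each of the 119 members (rows) in each of the 34 libraries (columns, by stage, white lines between stages) as log2(CPM + 0.1). Rows run from the member with the highest share of its log2 rise reached at Stage 7 down to the lowest, with the member that has no Stage 6 read in the bottom row. The colour changes between Stage 6 and Stage 8 in every row and most rows keep their colour in the late stages.

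At one end of the order stood genes that had covered most of their log2 rise by Stage 7. LOC112566396 had 6.64, 4.92 and 5.76 CPM at Stage 6, 40.2, 39.0 and 40.8 CPM at Stage 7 and 40.0, 53.7, 45.2 and 49.9 CPM at Stage 8. Its Stage 7 libraries lay above all of its Stage 6 libraries and overlapped those of Stage 8, and 92.1% of its log2 rise had been covered by then. LOC112559237 had 4.39, 7.47 and 4.48 CPM at Stage 6, 60.1, 62.2 and 67.8 CPM at Stage 7 and 68.1, 75.7, 96.7 and 102 CPM at Stage 8, a share of 89.1%. LOC112562980 followed with 83.4% and had 6.40, 10.7 and 14.7 CPM at Stage 7. Its Stage 8 mean of 17.3 CPM was still 1.63 times its Stage 7 mean.

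At the other end stood genes that moved mainly in the second step. LOC112563779 had 2.21, 1.73 and 1.76 CPM at Stage 6, 2.98, 3.65 and 2.87 CPM at Stage 7 and 19.9, 21.0, 15.1 and 18.9 CPM at Stage 8, and covered 22.3% of its log2 rise by Stage 7. LOC112561892 covered 24.6%, with 13.8, 22.4, 13.3 and 17.1 CPM at Stage 8 against 1.82, 2.45 and 5.01 CPM at Stage 7. LOC112556759, at 23.2%, is described with its neighbour. LOC112560603 was the sharpest case. It had no read among the 65978482 reads of the Stage 6 libraries, 17 reads over those of Stage 7 (0.331, 0.299 and 0.313 CPM) and 29.0, 21.7, 16 and 39.4 CPM at Stage 8. Set against a floor of 3 reads over the Stage 6 group, or 0.0455 CPM, its Stage 8 mean was at least 583-fold higher, and it was 84.4 times its Stage 7 mean.

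The largest measured ratios of Stage 8 over Stage 6 rest on few Stage 6 reads. LOC112569096 stood at 40.0 ± 11.5 CPM at Stage 8 (n = 4) and had 4 reads at Stage 6 (0.0600 CPM), a ratio of 666. LOC112558093 stood at 21.0 ± 5.02 CPM at Stage 8 and had 7 reads at Stage 6, a ratio of 196. LOC112560078 had more Stage 6 reads, with 145, 184, 296 and 310 CPM at Stage 8 against 0.955, 2.41 and 2.19 CPM at Stage 6, a ratio of 126. These values describe how far a member moved and carry no test, since the ratio was part of the choice.

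LOC112562163 (8.05 times, 29.2 CPM at Stage 8) and LOC112569806 (8.09 times, 26.7 CPM) were the members nearest to the 8-times limit. LOC112557034 (7.996 times, 51.0 CPM) and LOC112566569 (7.95 times, 34.4 CPM) were the nearest genes left out. This limit alone left out 641 genes, the Stage 8 minimum alone 253 and the Stage 2 reads alone 138. The upper limit on the level and the hatchling share of the highest mean alone left out 7 each, the ratio of the hatchling to Stage 10 left out 4 and the Stage 6 maximum 2. At the Stage 8 minimum the nearest genes were LOC112559497 inside at 10.05 CPM and LOC112564539 outside at 9.96 CPM. At the Stage 6 maximum they were LOC112553125 at 9.94 CPM and LOC112571941 at 13.4 CPM, and at the upper limit LOC112576009 at 457 CPM and LOC112567531 at 542 CPM. For the hatchling share they were LOC112561346 at 58.3% and LOC112564919 at 45.2%, and for the hatchling over Stage 10 LOC112562728 at 3.74 times and LOC112564880 at 4.24 times. At the Stage 2 limit, 9 members had 4 reads and 15 otherwise qualifying genes had 3. The list also leaned on single libraries. Leaving out each of the 34 libraries in turn, 64 members met the rule every time, 27 were lost only without some Stage 2 library and 28 were lost without some library of another stage.

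Since the rule used all libraries of Stage 6 and Stage 8, the choice was repeated without 1 replicate number of every stage and the rise was then read in the libraries left out. Without replicate 1 the rule took 103 genes, and 85 of them (82.5%) were also at least 8 times higher in the Stage 8 library numbered 1 than in that of Stage 6. Without replicate 2 it took 105 genes and 76 (72.4%) did so, and without replicate 3 it took 117 genes and 81 (69.2%) did so. Of all 17441 tested genes, 10.1%, 10.6% and 9.75% reached this ratio in the same pairs of libraries. The median ratio of the chosen genes in the left-out libraries was 13.4, 12.4 and 11.3, and 102, 104 and 115 of them were at least 2 times higher at Stage 8. Of the chosen genes 99, 84 and 99 were members, so these shares are not those of the members themselves. The chosen genes were picked for this rise in the other libraries, and the tested genes were not. Library numbers are not known to mark pairs.

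Stage 7 and Stage 9 were used by the rule only through the highest stage mean, so the rise was also tested between them. Stage 9 against Stage 7, 117 of the 119 members (98.3%) were higher by edgeR's quasi-likelihood test with Benjamini-Hochberg adjustment over 17441 genes, and none was lower. Of all tested genes 31.3% were higher and 29.2% lower. A call with a fold of 2 or more went to 115 members (96.6%) and 20.1% of all tested genes. The 2 members without a call also had positive log2 fold changes. The median log2 fold change of the members was 2.34 (quartiles 1.80 and 2.95), against 0.05 over all genes. In 116 members (97.5%) every Stage 9 library lay above every Stage 7 library, as in 33.2% of all tested genes. The whole-table median was 0.05 with the main scaling (TMM) and 0.18 with RLE scaling, under which 62.4% of all calls were higher in place of 51.8%. DESeq2 gave 62.6%, and 118 members were higher under both. Because a rise between Stage 6 and Stage 8 was asked for, this is the same rise seen in other libraries, and its direction was set by the choice of members.

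LOC112560603 again moved most, with 40.3, 57.7, 57.5 and 23.5 CPM at Stage 9 against 0.331, 0.299 and 0.313 CPM at Stage 7, an edgeR log2 fold change of 7.11 ± 0.596 (SE) with adjusted p = 1.39e-10. LOC112556759 had 65.3, 49.1, 39.4 and 47.0 CPM at Stage 9 against 1.76, 1.61 and 0.992 CPM at Stage 7, an edgeR log2 fold change of 5.09 ± 0.730 (SE) with adjusted p = 9.03e-07. LOC112557868 had 113, 65.8, 95.6 and 136 CPM at Stage 9 against 2.10, 3.11 and 5.12 CPM at Stage 7, an edgeR log2 fold change of 4.87 ± 0.396 (SE) with adjusted p = 3.27e-11. In these 3 genes the lowest Stage 9 library was over 10 times the highest Stage 7 library.

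The smallest differences belonged to genes with early or uneven levels. LOC112566396, which was near its Stage 8 level by Stage 7, had 94.8, 77.1, 67.8 and 66.2 CPM at Stage 9 against 40.2, 39.0 and 40.8 CPM at Stage 7, an edgeR log2 fold change of 0.91 ± 0.146 (SE) with adjusted p = 5.00e-06. LOC112554093 had 6.64, 1.66, 11.8 and 14.5 CPM at Stage 9 against 6.45, 3.29 and 5.95 CPM at Stage 7, an edgeR log2 fold change of 0.72 ± 0.365 (SE) with adjusted p = 0.0896. Its groups overlapped. Its value passed the threshold without the low replicate 2 of Stage 9 (log2 fold change 1.03, edgeR adjusted p = 0.000985), with RLE scaling (0.0478) and in DESeq2 (adjusted p = 0.0399), and its adjusted p lay between 0.000985 and 0.452 across the alternatives. LOC112576751 had 19.2, 5.44, 22.4 and 23.2 CPM at Stage 9 against 7.39, 8.43 and 11.6 CPM at Stage 7 and was not called either (edgeR adjusted p = 0.173). In both uncalled members replicate 2 of Stage 9 was the lowest library.

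Stage 4 and Stage 5 were also used only through the highest stage mean, and their comparison asks whether the genes moved before Stage 6. Stage 5 against Stage 4, 31 members (26.1%) were higher and 2 (1.68%) were lower, with 86 not called (edgeR quasi-likelihood, Benjamini-Hochberg adjustment). Of all 17441 tested genes 12% were higher and 10.7% lower. The rule limited the Stage 3 and Stage 6 means on either side and asked for a later rise, which the tested genes did not have to meet. The median member also stood at 0.539 CPM at Stage 4, against 4.05 CPM for the median of all genes. The shares of members higher and lower may therefore be partly set by the choice. The median log2 fold change was 0.72 over the members and 0.00 over all genes, and 91 members had a positive one. A call with a fold of 2 or more went to 28 members (23.5%) and 5.94% of all tested genes. In 45 members (37.8%) every Stage 5 library lay above every Stage 4 library, as in 24.2% of all tested genes. Each of the 31 members higher at Stage 5 was also higher at Stage 9 than at Stage 7. So were 98.3% of all members, and nothing is read from this overlap. Over the members the log2 fold changes of both comparisons had a Spearman correlation of -0.31, which was not tested. Only 80 of the members passed the low-count filter on these stages alone, and in a fit restricted to them 16 (20%) were higher, against 7.58% of its genes. With limma-voom 13 members (10.9%) were higher, near the 7.59% of all tested genes. With library totals as scaling 38 members (31.9%) and 17.7% of all tested genes were higher, the whole-table median was 0.12 and 78.7% of all calls were higher in place of 52.8%.

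LOC112557363 had 1.08, 0.662 and 0.592 CPM at Stage 5 against 0, 0.0946 and 0.171 CPM at Stage 4, an edgeR log2 fold change of 3.06 ± 0.536 (SE) with adjusted p = 0.000119. LOC112573993 had 0.749, 1.93 and 1.84 CPM at Stage 5 against 0.143, 0.284 and 0.0571 CPM at Stage 4, an edgeR log2 fold change of 2.98 ± 0.442 (SE) with adjusted p = 1.46e-05. LOC112559482 had 1.08, 0.602 and 0.948 CPM at Stage 5 against 0, 0.142 and 0.229 CPM at Stage 4, an edgeR log2 fold change of 2.75 ± 0.447 (SE) with adjusted p = 4.74e-05. No Stage 5 library of these genes overlapped a Stage 4 library, but the Stage 4 levels rest on 5, 10 and 7 reads. Leaving out Stage 4 replicate 3 gave log2 fold changes of 3.83 for LOC112557363 and 3.43 for LOC112559482, and leaving out Stage 4 replicate 2 gave 3.67 for LOC112573993.

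The calls of the 2 members lower at Stage 5 depended on single libraries. LOC112554878 had 0.0936, 0.120 and 0.178 CPM at Stage 5 against 0.430, 0.0473 and 1.14 CPM at Stage 4, an edgeR log2 fold change of -2.09 ± 0.681 (SE) with adjusted p = 0.0260. Without replicate 3 of Stage 4 its log2 fold change was -1.02 (edgeR adjusted p = 0.360), and the adjusted p ran from 0.00113 to 0.593 over the alternatives that tested it. Its Stage 5 libraries held 2, 2 and 3 reads and its Stage 4 libraries 9, 1 and 20, and it did not pass the low-count filter on these stages alone, so it entered the test through its late levels. The call was also lost without replicate 1 of Stage 4, without replicate 1 or 2 of Stage 5 and with limma-voom (log2 fold change -1.23). LOC112574692 had 1.83, 1.02 and 2.43 CPM at Stage 5 against 1.29, 7.00 and 4.80 CPM at Stage 4, an edgeR log2 fold change of -1.43 ± 0.398 (SE) with adjusted p = 0.00932. Without replicate 2 of Stage 4 its log2 fold change was -0.86 (edgeR adjusted p = 0.165), and its adjusted p lay between 0.000387 and 0.311 across the alternatives. Omitting replicate 2 of Stage 5, restricting the fit to these stages or using limma-voom also ended that call. The groups overlapped in both genes.

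**Figure D3:**
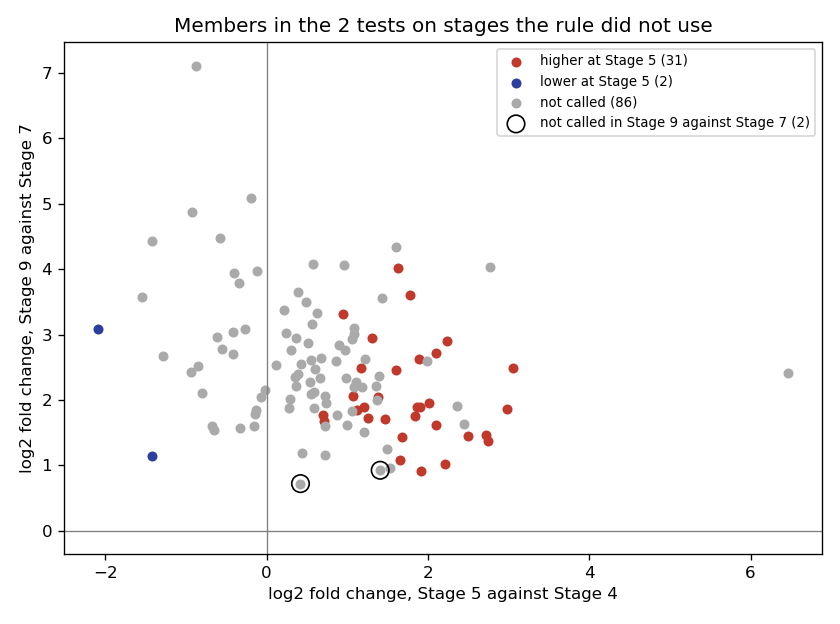
Log2 fold change of each member at Stage 5 against Stage 4 (horizontal) and at Stage 9 against Stage 7 (vertical), from edgeR. Red points were called higher at Stage 5, blue points lower and grey points not called, and ringed points were not called at Stage 9 against Stage 7. All 119 points lie above the horizontal zero line and 91 lie right of the vertical one.

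The outlying grey point at 6.46 on the horizontal axis is LOC112560078, with 0.562, 0.421 and 0 CPM at Stage 5 and no Stage 4 read. Its fitted value depends on the prior count and was not called (edgeR adjusted p = 0.276). Members with more Stage 2 reads were called higher at Stage 5 in fewer cases. Among the 31 members with 40 or more Stage 2 reads 1 was higher and 1 lower, with a median log2 fold change of 0.39, and among the 32 members with 7 or fewer 12 were higher, with a median of 1.19. Of all tested genes 12% were higher and 10.7% lower. The limits of 40 and 7 are the quartiles of the members' Stage 2 reads, which were part of the rule. They were set after the data were seen, and the difference between the groups was not tested. The 138 genes that met every other part of the rule with 3 or fewer Stage 2 reads gave 44 higher (31.9%) and 0 lower, with a median of 1.56. In the test of Stage 9 against Stage 7 those 138 genes gave 135 higher (97.8%) and a median of 2.56, beside 98.3% and 2.34 for the 119 members.

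After Stage 8 most members stood at the same level or higher. The hatchling mean was 1.93 times the Stage 8 mean in the median member (quartiles 1.45 and 2.77). It reached at least 2 times the Stage 8 mean in 57 members, at least 4 times in 14, and lay below the Stage 8 mean in 5. The highest stage mean fell in the hatchling for 85 members, while Stage 9 held it for 20, Stage 10 for 12 and Stage 8 for 2. The step from Stage 9 to Stage 10 had no common direction, with 68 members higher at Stage 10 and a median ratio of 1.02. All Stage 7 libraries lay above all Stage 6 libraries in 115 members (96.6%), against 29.1% of all tested genes, and all Stage 8 libraries above all Stage 7 libraries in 111 (93.3%), against 28.9%. Stage 6 against Stage 5 this held in 62 members (52.1%) and 16.6% of all tested genes. In 84 members (70.6%) every Stage 9 library lay above every Stage 8 library, which held for 14.3% of all tested genes. In 37 members (31.1%) every hatchling library lay above every Stage 10 library, against 16.5% of all tested genes, and between Stage 10 and Stage 9 the shares were 6.72% of members and 10.5% of tested genes. Stage 6, Stage 8, Stage 10 and hatchling means were part of the choice, so nothing is read from these shares.

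LOC112554321 was among the members that kept climbing. It had 27.7, 32.3, 26.0 and 32.9 CPM at Stage 8, 86.8, 77.1, 87.0 and 92.6 CPM at Stage 9, 88.6, 107, 98.0 and 116 CPM at Stage 10 and 268, 333, 343 and 329 CPM in the hatchling. The hatchling libraries lay above all those of Stage 10, and the hatchling mean was 10.7 times that of Stage 8. LOC112576009, the member of highest hatchling mean, had 462, 528, 432 and 406 CPM in the hatchling against 46.5, 60.7, 60.3 and 60.9 CPM at Stage 8, with a mean 8.00 times as high. Its Stage 10 libraries were uneven, at 134, 196, 86.7 and 227 CPM.

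Other members levelled off. LOC112559482 had 42.1, 47.2, 38.0 and 48.5 CPM in the hatchling against 50.8, 50.2, 47.1 and 43.0 CPM at Stage 8, and these ranges overlapped. LOC112557719 had its highest mean at Stage 9, with 456, 316, 245 and 321 CPM in the hatchling against 333, 463, 507 and 344 CPM at Stage 9, which overlapped too. LOC112572463, named after its values were seen, did not level off but had a lower mean at Stage 10 only. It had the lowest ratio of Stage 10 over Stage 9 (0.336), with means of 12.0 CPM at Stage 9, 4.04 CPM at Stage 10 and 10.9 CPM in the hatchling. Its Stage 10 libraries were uneven, with 430, 142, 28 and 455 reads.

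**Figure D4:**
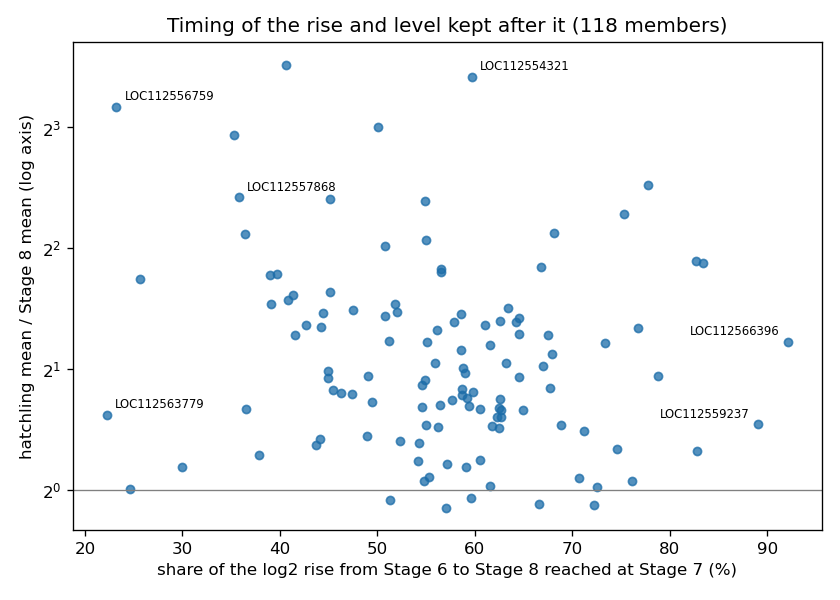
For the 118 members with Stage 6 reads, the share of the log2 rise from Stage 6 to Stage 8 that had been covered at Stage 7 (horizontal, %) and the hatchling mean over the Stage 8 mean (vertical, log axis). Shares run from 22.3% to 92.1% and ratios from 0.902 to 11.5, with 5 members below the line of equal levels.

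Agreement between hatchling libraries varied widely among the members. The coefficient of variation over the 4 hatchling libraries had a median of 14.8% in the members, and of 8.99% in the 10714 genes with hatchling means in the members' range. LOC112566219 had 27.8, 27.4, 27.5 and 27.4 CPM in the hatchling (0.720%) and LOC112553279 had 21.5, 21.9, 21.4 and 22.2 CPM (1.73%). LOC112560078 was the least even, with 286, 171, 398 and 948 CPM in the hatchling (76.4%), although its Stage 9 libraries lay between 366 and 537 CPM. It met the rule only with each Stage 2 library and with hatchling replicates 1 and 2 included. Its hatchling libraries, at 451 ± 344 CPM (n = 4), overlapped those of LOC112557719, at 335 ± 88.4 CPM, and LOC112554321, at 318 ± 34.2 CPM.

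The rule asked only for a trace of Stage 2 reads, and the members differed in how far that trace went. At Stage 2 47 members had 4 to 10 reads and 12 had over 100, and 89 had a read in each of the 3 libraries. The mean stayed under 1 CPM in 94 members at Stage 2, 88 at Stage 4 and 33 at Stage 6. Stage 2 held the lowest mean of 53 members, Stage 3 of 33, Stage 4 of 21, Stage 5 of 9 and Stage 6 of 3. In 20 members the Stage 2 mean was at least 2 times the Stage 4 mean, and in 85 members the mean of each stage from Stage 5 to Stage 8 was above that of the stage before.

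LOC112570642 and LOC112576495 are the members that stood above 10 CPM at Stage 2, and in both the libraries disagreed. LOC112570642 had 42.8, 0.444 and 0.210 CPM at Stage 2 and 18.3, 0 and 0.0467 CPM at Stage 3, before 0.143, 0.189 and 0.0571 CPM at Stage 4. Replicate 1 held 714 of its 727 reads at Stage 2 and 397 of its 398 at Stage 3. LOC112576495 had 0.959, 10.5 and 26.5 CPM at Stage 2, 0.554, 3.75 and 10.7 CPM at Stage 3 and 5.35, 1.04 and 1.43 CPM at Stage 4, with replicate 1 the lowest at the first pair of stages and the highest at Stage 4. In the hatchling both were even, at 15.7 to 18.1 CPM and 228 to 270 CPM over the libraries. LOC112556770, the next in Stage 2 level, had 1.86, 4.79 and 4.20 CPM at Stage 2. LOC112554321 had 0, 0 and 0.280 CPM at Stage 3 against 1.74, 1.58 and 0.578 CPM at Stage 2, without overlap. Of the 119 members 15 had 80% or more of their Stage 2 reads in 1 library, and LOC112553279 had all 77 in replicate 3.

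**Figure D5:**
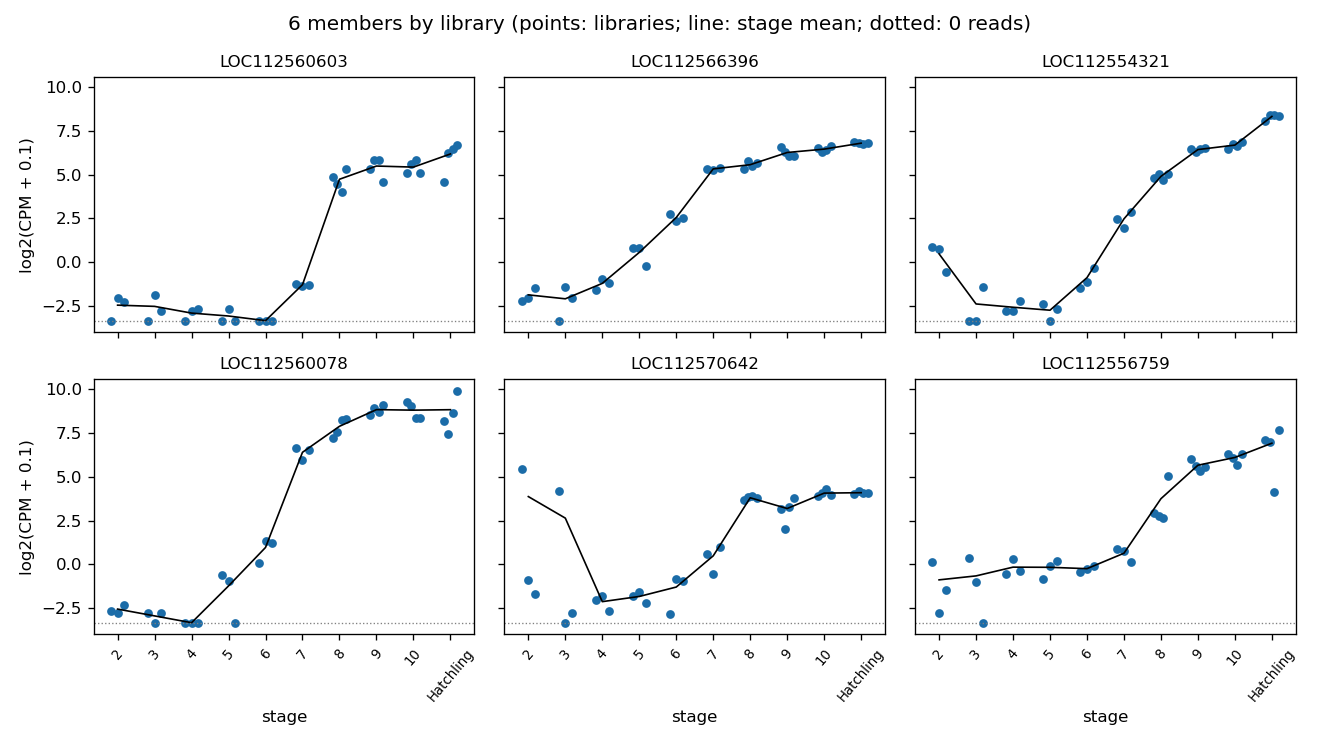
Level of 6 members in every library (points) and its stage mean (line) by stage, as log2(CPM + 0.1), where the dotted line marks 0 reads. LOC112560603 jumps between Stage 7 and Stage 8, LOC112566396 climbs from Stage 4 and is near its Stage 8 level at Stage 7, LOC112554321 climbs to the hatchling, LOC112560078 spreads in the hatchling, LOC112570642 has 1 high library at each of Stage 2 and Stage 3, and LOC112556759 has 1 high library at Stage 8 and 1 low one in the hatchling.

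By the gene order that RefSeq gives, taken over the genes of the deposited table only, 2 pairs of members were direct neighbours. In that order 7 pairs of members following each other had 4 or fewer genes between them. Annotated genes absent from the deposited table were not counted. LOC112556757 and LOC112556759 were direct neighbours in this order and shared their uneven libraries. In the hatchling LOC112556757 had 154, 122, 17.3 and 231 CPM and LOC112556759 had 136, 126, 17.2 and 201 CPM. At Stage 8 LOC112556757 had 6.11, 5.08, 5.26 and 29.3 CPM and LOC112556759 had 7.58, 6.65, 6.15 and 32.9 CPM. Hatchling replicate 3 was thus low and Stage 8 replicate 4 high in both, and without that Stage 8 library neither met the rule. LOC112574242 and LOC112574243, the other neighbours, stood at 38.2 ± 18.2 and 53.3 ± 18.2 CPM in the hatchling (n = 4), and replicate 1 was the highest library in both. Pearson's r of log2(CPM + 1) over the 10 stage means was 0.995 for the first pair and 0.997 for the second, in the same libraries. LOC112565174 and LOC112565011, with 1 gene between them, gave 0.971. All 7021 pairs of members had a median r of 0.973 (quartiles 0.953 and 0.986), as the rule chose them for a like course. Neighbouring genes can share reads, and whether these do was not tested. In 8 members a direct neighbour was one of the 138 genes of the same rule with 3 or fewer Stage 2 reads.

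The rule fixed the course of the members, so their likeness is a description. Over the 10 stage means, Pearson's r of log2(CPM + 1) with the mean profile of the 119 members had a median of 0.987 and was lowest in LOC112570642 (0.614) and next lowest in LOC112556471 (0.924). The 5 other genes most like that profile were LOC112557219 (0.9994), LOC112560758 (0.9989), LOC112560214 (0.9988), LOC112568215 (0.9987) and LOC112576896 (0.9987). All 5 had 3 or fewer Stage 2 reads, and LOC112576896 also stood below 10 CPM at Stage 8. LOC112557219 had means of 0.923 CPM at Stage 6, 4.25 CPM at Stage 7, 14.4 CPM at Stage 8 and 28.4 CPM in the hatchling, a course that only its Stage 2 reads kept out of the list.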

How the data were processed

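Whole-animal polyadenylated RNA of 10 stages was measured in 34 libraries. The values the authors deposited are raw read counts, whole numbers for each gene and library. Per the submitters' processing notes STAR, a read aligner, was used. The sources used here do not give its version, the build, the strand setting or how reads with several matches were counted, so near-identical or overlapping genes are uncertain. Stages were taken from the sample titles. No sequence was used here.

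Levels are CPM on library totals, as mean ± SD. Tests used edgeR 4.0.16 in R 4.3.3 (quasi-likelihood, TMM, filterByExpr with a minimum count of 10, 1 coefficient per stage over all libraries), with a call at an adjusted p under 0.05. The tests were also tried on counts simulated from the main fit, with changes only in genes above a minimum mean level. Alternatives were RLE and library-total scaling, no filter, DESeq2 1.42.0, limma-voom 3.58.1, the compared stages alone, a replicate block and left-out libraries. The members, the lists and the rule for named genes were chosen with earlier results of these data known. Named members were the extremes of level, ratio, timing, fold change and agreement, the genes at the limits and the closest neighbours; further names were chosen after their values were seen. Planned gene lists by product name and sequence features could not be applied.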

Additional observations from a re-analysis of the deposited data

Results flagged for a closer look

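Among the 136 groups of 4 libraries of the named members and of the members' summed level, 6 held a library far from the other 3. Distance was judged by the gap relative to the range of the 4. Chance gives about 1 in 20 for independent groups that were not picked by their values. Some of these members were named for their hatchling spread or as neighbours, so nothing is read from 6 of 136 against that share. LOC112556757 and LOC112556759, the neighbouring genes, were both high in replicate 4 of Stage 8, at 29.3 CPM (others 5.08 to 6.11) and 32.9 CPM (others 6.15 to 7.58). LOC112576751 had 78.7 CPM in hatchling replicate 1 (others 31.97 to 33.42). LOC112565174 had 29.7 CPM in Stage 10 replicate 2 (others 14.8 to 15.3). LOC112576009 had 46.5 CPM in Stage 8 replicate 1 (others 60.3 to 60.9), and LOC112556770 had 39.2 CPM in Stage 10 replicate 3 (others 42.3 to 42.8).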

How the results depend on the processing

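The rule took 100 genes with TMM-scaled totals (99 of them members), 120 with RLE (118) and 122 with medians of libraries (110), and 311 with a limit of 4 times and 49 with 16 times. Without 1 replicate number of every stage it took 103 to 117 genes, and without any single library 94 (Stage 2 replicate 2) to 130, alternatives partly chosen after seeing the data. For Stage 5 against Stage 4 the members called higher numbered 13 with limma-voom (10.9%, against 7.59% of all tested genes) and 43 in DESeq2 (36.1%, against 13%). In the fit of the 2 stages alone they were 16 of the 80 tested (20%, against 7.58%). Without 1 library they numbered 24 to 35 (20.2% to 29.4%), while 8.49% to 12.9% of all tested genes were higher. LOC112554878 was not tested in the fit of the 2 stages alone. Members called lower numbered 0 with limma-voom, 0 in the fit of the 2 stages alone and 1 to 2 without 1 library. For Stage 9 against Stage 7, 113 to 118 members (95% to 99.2%) were higher under all alternatives and none was lower. Of all tested genes 25.7% to 38.4% were higher under these alternatives. The cause of these differences was not tested.

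With a replicate block 30 members (25.2%) were higher and 2 lower at Stage 5, where 11.5% of all tested genes were higher. At Stage 9 116 members (97.5%) were higher with this block, against 30.4% of all tested genes. In the stages tested, libraries of the same number did not all deviate together (correlations -0.17, 0.09 and 0.06 for Stage 5 with Stage 4 and 0.06, -0.05 and 0.07 for Stage 9 with Stage 7), so the numbers were not taken as pairs. Between Stage 3 and Stage 2, which were not tested, the correlation was 0.46 for replicate 1, -0.15 for replicate 2 and 0.08 for replicate 3. Early levels are limited by depth, as 15 members had under 10 reads at Stage 4.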
